A study of Mus musculus with 18 samples.

Results

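T cell receptor V and J segments are the gene pieces that a T cell joins to build the variable part of its antigen receptor. All rows of the deposited gene table whose symbol in the GENCODE M21 annotation starts with Trav, Traj, Trbv or Trbj were taken. They number 237 of the 55536 rows that name a gene. The alpha chain locus on chromosome 14 supplies 128 Trav and 60 Traj rows, and the beta chain locus on chromosome 6 supplies 35 Trbv and 14 Trbj rows (GRCm38). The annotation calls 194 of them functional and 43 pseudogenes, and 11 rows had 0 counts in all 18 libraries. Each segment was expressed as a share of the counts of its own class in each library, so that a share does not depend on how libraries are scaled against each other.

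RNA sequencing had been done on CD8+ T cells from mouse spleen and lymph nodes, and the labels give the genotype of all 18 libraries as OT-I. OT-I is a transgenic mouse line whose T cells carry an inserted, already joined receptor for the ovalbumin peptide SIINFEKL bound to the class I molecule H-2Kb. The groups are 8 libraries labelled naive (day 0), 8 labelled control (a scrambled sequence, day 4) and 2 labelled Tra2bKO, called knockout below (Tra2b, a splicing regulator, day 4). Control and knockout cells had both received SIINFEKL together with anti-OX40 and anti-41BB, antibodies that engage costimulatory receptors. This treatment is shared and, by these labels, the targeted sequence separates them. Handling or batch may also differ between the groups, and could not be told apart from the targeted sequence. The labels give no age, strain background or Rag genotype, do not say how the sequences were delivered, and do not say whether libraries of 1 group came from separate animals or from pools. P-values therefore set a difference between groups only against the spread of the libraries within them, and that spread may be technical.

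During T cell development the recombinase made of RAG1 and RAG2 joins a V, a D and a J segment at the beta locus, and a V and a J segment at the alpha locus. The joined V and J exons are spliced to a constant exon, Trac for alpha and Trbc1 or Trbc2 for beta. The Trbj1 cluster lies before Trbc1 and the Trbj2 cluster before Trbc2. Pairing of many V with many J segments gives a normal T cell population its range of receptors, while a transgenic line is dominated by its inserted pair. The OT-I receptor is known to use V alpha 2, encoded by the Trav14 family, with Traj33, and V beta 5, encoded by Trbv12-1, with Trbj2-7. Trbv12-2 encodes the other V beta 5.

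The segments that carry the results are shown here as they stand in GRCm38, plus strand, 5′ to 3′, credited to the genome and GENCODE M21. The J segments are whole, and capitals mark the motif GGNNNNGG, the letters that encode Gly-X-Gly where they fall in frame, as in the Phe-Gly-X-Gly motif by which J segments are known, searched as plain letters on the coding strand; overlapping matches run together. Traj33 and Trbj2-7 belong to the OT-I receptor, and Traj49, Traj58, Traj47, Traj41 and Traj27 are the Traj rows that were lower in the knockout libraries. Traj22 led the Traj class in the naive libraries. Trbj2-1 and Trbj1-1 followed Trbj2-7 in the stimulated libraries. Traj7 and Trbj2-4 stood apart in naive library 6.
Traj33 (chr14:54185358-54185414): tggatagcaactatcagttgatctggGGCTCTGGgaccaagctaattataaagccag
Traj49 (chr14:54168686-54168747): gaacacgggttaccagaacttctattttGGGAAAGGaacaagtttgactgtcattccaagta
Traj58 (chr14:54157280-54157342): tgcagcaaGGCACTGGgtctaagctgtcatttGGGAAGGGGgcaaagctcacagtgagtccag
Traj47 (chr14:54171800-54171856): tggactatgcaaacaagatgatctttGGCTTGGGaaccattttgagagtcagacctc
Traj41 (chr14:54176271-54176325): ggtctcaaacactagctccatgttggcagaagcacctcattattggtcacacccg
Traj27 (chr14:54192303-54192361): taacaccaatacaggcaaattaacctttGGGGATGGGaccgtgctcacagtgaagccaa
Traj22 (chr14:54197248-54197307): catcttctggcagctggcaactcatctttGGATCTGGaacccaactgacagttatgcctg
Traj7 (chr14:54211470-54211528): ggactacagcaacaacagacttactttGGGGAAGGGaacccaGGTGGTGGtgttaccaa
Trbj2-7 (chr6:41543810-41543856): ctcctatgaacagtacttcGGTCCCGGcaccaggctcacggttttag
Trbj2-1 (chr6:41542754-41542803): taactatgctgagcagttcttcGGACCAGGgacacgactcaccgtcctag
Trbj1-1 (chr6:41533864-41533911): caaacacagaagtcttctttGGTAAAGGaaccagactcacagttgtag
Trbj2-4 (chr6:41543362-41543410): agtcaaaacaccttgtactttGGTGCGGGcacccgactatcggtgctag

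The motif was present in 88.2% of functional Traj rows, 33.3% of Traj pseudogenes and 92.3% of functional Trbj rows. As a background, it was present in 13.4% of 911 windows of 60 bases cut from V segments on the coding strand, and in 25.0% on either strand. Traj41 is among the rows without it. The 12 Traj rows without the motif held 6.02% of the Traj counts in the naive libraries on average, and the 48 rows with it the rest.

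The last 60 bases of V segments are shown next, as examples of how alike the rows are at that end. Trav14d-2 and Trav14n-2, not shown, also have 0 differences from Trav14d-1 there, so these bases alone do not tell all rows apart. In the Trav14 lines capitals mark bases that differ from Trav14d-1, and in the Trbv12-2 line bases that differ from Trbv12-1.
Trav14d-1 (chr14:52856107-52856166): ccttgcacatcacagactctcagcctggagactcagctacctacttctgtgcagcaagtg
Trav14n-1 (chr14:53167119-53167178): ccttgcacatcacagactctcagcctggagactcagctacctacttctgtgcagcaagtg
Trav14-3 (chr14:53763635-53763694): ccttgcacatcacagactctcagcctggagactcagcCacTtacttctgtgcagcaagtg
Trav14-1 (chr14:53554499-53554558): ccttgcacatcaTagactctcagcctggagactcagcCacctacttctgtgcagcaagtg
Trbv12-1 (chr6:41114008-41114067): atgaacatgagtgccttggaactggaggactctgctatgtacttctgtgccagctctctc
Trbv12-2 (chr6:41119305-41119364): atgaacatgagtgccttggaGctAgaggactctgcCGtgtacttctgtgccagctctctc

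Over the last 280 bases Trav14n-1 had 0 differences from Trav14d-1, and Trav14d-2, Trav14n-2 and Trav14-3 had 9 each. Trbv12-2 had 31 differences from Trbv12-1 and shared no run of 50 bases with it. Among the Trav rows, 66 had at least 50% of their 50-base runs in another row and 38 had all of them there. How the authors' counting divided reads between such copies is not given in the sources used here, so values of single Trav copies are uncertain and the Trav14 rows are also given as 1 family. Exons of 6 segments overlap another gene, and the named segments are not among them. The library kit does not mark strand.

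Total counts per library ran from 68249844 to 93972513. Class totals per library were 29617 to 49321 counts for Trav, 3680 to 6647 for Traj, 48967 to 90435 for Trbv and 7635 to 16257 for Trbj. A count of 0 in a library (a limit of 3 counts) allows a share of up to 0.00613% of Trbv and up to 0.0815% of Traj at the shallowest depth, and these limits cover counting error only. All 5 CD8 T cell markers were detected, with a summed level of 4347 to 5253 CPM in naive, 2381 to 2950 in control and 2661 to 3050 in knockout libraries, while Cd4 averaged under 1 CPM in every group. The libraries labelled naive went against the OT-I label in that they held a broad set of segments, described next, so naive below is only the label.

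The libraries labelled naive held a broad set of receptor segments. The effective number of segments (the exponential of the Shannon entropy of the shares, which equals the number of segments if all were used equally) was 81.8 ± 3.54 for Trav, 38.4 ± 1.33 for Traj, 16.5 ± 0.632 for Trbv and 12.2 ± 0.179 for Trbj (SD, n = 8). In the controls the same numbers were 3.59 ± 0.147, 5.39 ± 0.520, 1.02 ± 0.00570 and 6.99 ± 0.449 (SD, n = 8). The 2 knockout libraries had 3.72 and 3.61 for Trav, 4.63 and 4.61 for Traj, 1.05 and 1.03 for Trbv and 6.42 and 7.39 for Trbj. Among the 4 classes, this number was highest for Trbj and lowest, close to 1, for Trbv in the stimulated libraries. With the Trav rows summed by family, the Trav numbers became 12.9, 1.18 and 1.19 in naive, control and knockout libraries.

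Trbv12-1, the V segment of the OT-I beta chain (ENSMUSG00000095574.2, chr6:41113550-41114067, plus strand), filled nearly the whole Trbv class of the stimulated libraries. It held 5.95 to 12.4% of Trbv counts in the naive libraries (median 6.66%), 99.6 to 99.8% in the controls (median 99.8%) and, in knockout, 99.4 and 99.7%. Naive library 2 was the highest of its group, and no naive library came near a stimulated one. The means lay 92.4 percentage points apart (p = 0.000155 by an exact permutation test, two-sided, the smallest that 12870 splits allow; adjusted p = 0.000311 over 10 single shares, Benjamini-Hochberg). Trbv12-2, the other V beta 5 segment, went the opposite way. It was the leading Trbv segment of the naive libraries, with 10.8 to 13.1% (median 12.2%), and held 0.0164 to 0.0596% in the controls and, in knockout, 0.0567 and 0.0526%. The controls were lower by -12.1 points (p = 0.000155, same exact test), with higher values in all 8 naive libraries. Shares of a class have a fixed total, so with Trbv12-1 this high in the controls Trbv12-2 had to be low there. Its p is therefore no separate evidence.

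On the alpha side the Trav14 family held 11.9 to 24.2% of Trav counts in the naive libraries (median 13.1%), 97.1 to 98.6% in the controls (median 97.6%) and 97.6% in both knockout libraries. Within the family the identical pair Trav14d-1 and Trav14n-1 held 85.9 ± 0.859% of Trav in the controls (SD, n = 8), near equally divided, at 43.0 ± 0.581% and 42.9 ± 0.588%. In the naive libraries the pair held 4.31 ± 0.971% (SD, n = 8). Trav14-3, Trav14n-2 and Trav14d-2 followed in the controls with 4.61, 3.98 and 2.97%, and the other 4 rows of the family held under 0.1% each on average. The 3 rows that followed share 28.1, 23.4 and 23.4% of their 50-base runs with Trav14d-1, while Trav14-1, Trav14-2 and Trav14n-3 share 1.1, 3.6 and 9.0%. Trav14d-3-dv8 shares 18.7% and held 0.0705%.

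**Figure D1:**
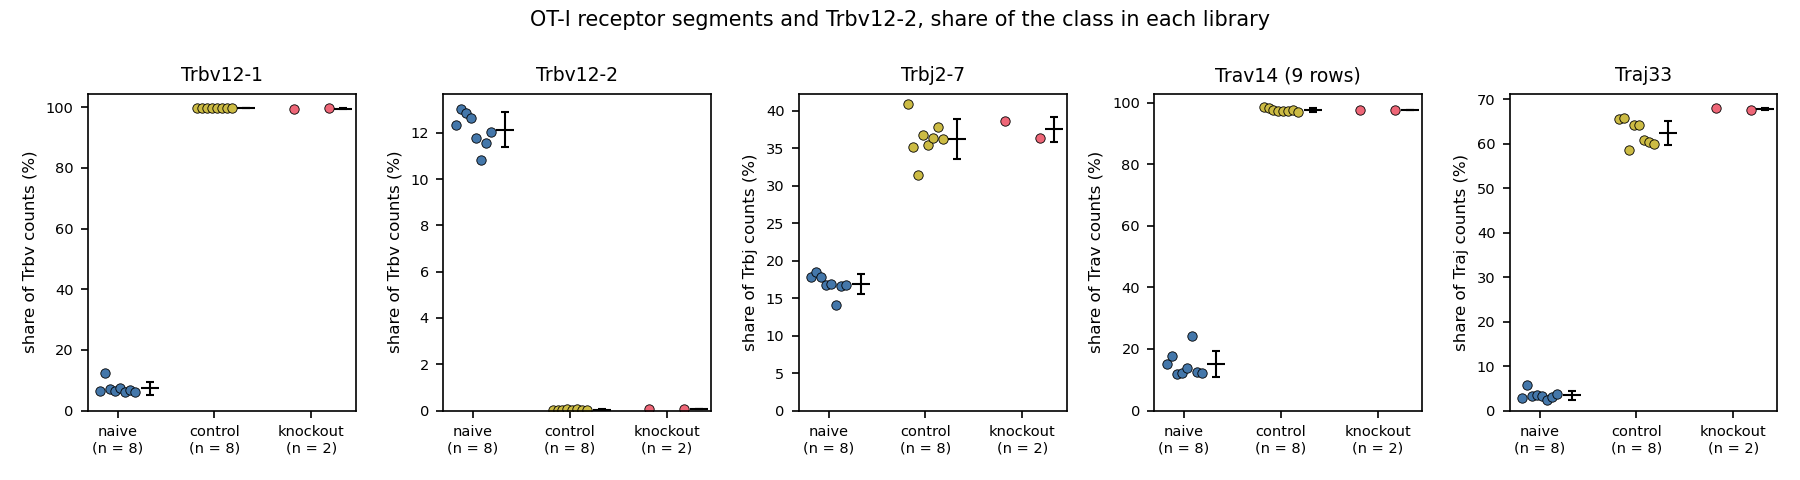
Share of the own class (%) of the OT-I receptor segments and of Trbv12-2, in 5 panels, with 1 point per library and a line and bar for the mean and SD of the naive (n = 8), control (n = 8) and knockout (n = 2) groups; each panel has its own vertical axis from 0. Trbv12-1 and the 9 Trav14 rows reach over 97% in every stimulated library, Traj33 reaches 58.7 to 67.9% and Trbj2-7 31.4 to 41.0%.

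The J segments of the OT-I receptor held smaller shares of their classes in the stimulated libraries than its V segments. Traj33 held 2.33 to 5.77% of Traj counts in the naive libraries (median 3.23%) and 58.7 to 65.6% in the controls (median 62.5%). Trbj2-7 held 14.1 to 18.4% of Trbj in the naive libraries (median 16.8%) and 31.4 to 41.0% in the controls (median 36.4%). The groups did not overlap for either segment. The controls lay 58.9 points higher for Traj33, 19.4 points for Trbj2-7 and 82.7 points for the Trav14 family (p = 0.000155 each, exact permutation test; adjusted p = 0.000311). So 34.3 to 41.4% of the Traj counts and 59.1 to 68.6% of the Trbj counts in a control library lay in segments other than those of the OT-I receptor, against 1.40 to 2.91% of Trav and 0.166 to 0.362% of Trbv.

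In a control library 8 to 10 of the 60 Traj rows and 11 of the 14 Trbj rows held over 1% of their class. Traj49 held 11.0 to 15.2% of Traj in the controls (median 13.1%), 10.3 and 10.1% in the knockout libraries and 1.77 to 3.78% in the naive libraries (median 3.62%). Traj58, with 3.97 ± 0.715% of Traj in the controls, and Traj37, with 2.83 ± 0.284%, came next (SD, n = 8). Of the Traj counts outside Traj33, the 28 rows upstream of Traj33 held 79.0 ± 1.29% in the controls, against 28.6 ± 2.72% in the naive libraries (SD, n = 8 each) and 71.8 and 71.6% in knockout. The 31 rows downstream of it, which include Traj22, Traj18 and Traj23, made up the rest. Traj27 and Traj26 were the downstream rows with the most counts in the controls, at 2.32 ± 0.227% and 1.54 ± 0.217% of Traj (SD, n = 8). As shares of Traj outside Traj33, the profiles of control and naive libraries had a Pearson correlation of 0.19 over 59 segments, and those of knockout and control libraries 0.99, as descriptions over segments that share the reads of the same libraries.

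**Figure D2:**
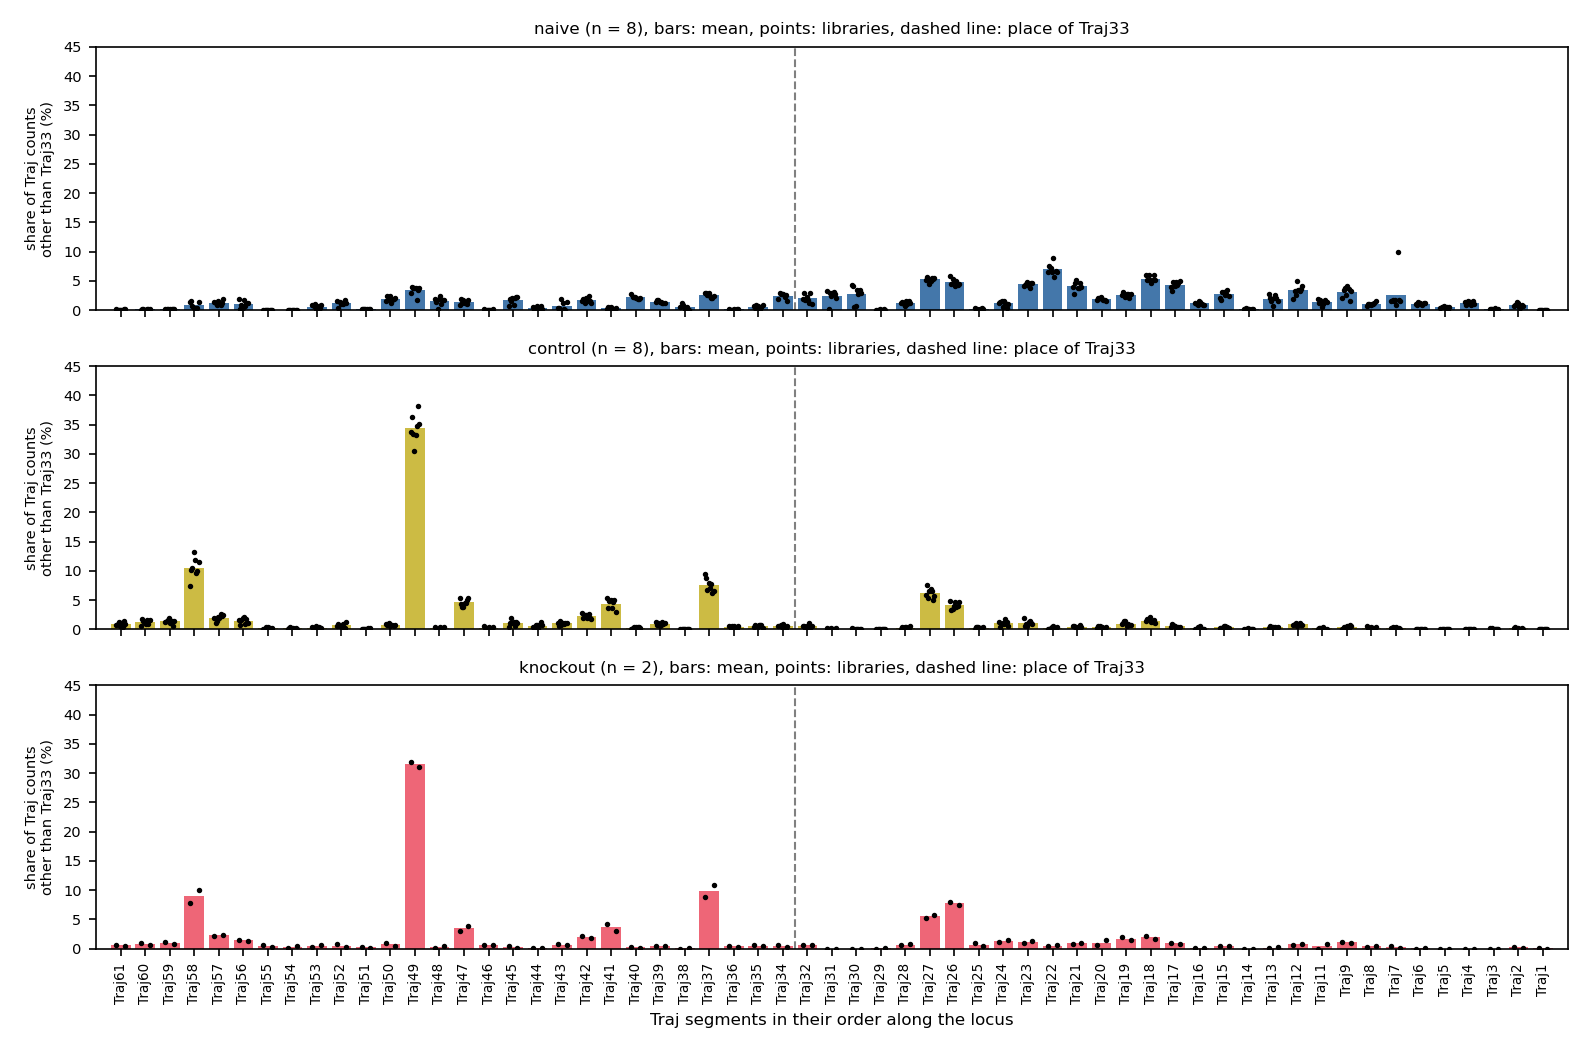
Share (%) of the Traj counts other than Traj33 held by each Traj segment, in the order of the locus, for naive (n = 8), control (n = 8) and knockout (n = 2) libraries; bars are means, points are libraries, and the dashed line is the place of Traj33. In control and knockout libraries the highest bar is Traj49, upstream of Traj33, and the naive profile is spread along the locus.

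In the Trbj class, Trbj2-1 held 17.2 to 20.3% in the controls against 11.7 to 15.2% in the naive libraries, and Trbj1-1 held 13.9 to 16.4% against 5.65 to 12.2%. The groups did not overlap for either. Trbj1-2 was the next segment, with 7.70 to 10.1% against 6.75 to 8.07%. Trbj2-5 and Trbj2-3, which lie between Trbj2-1 and Trbj2-7, held 0.576 ± 0.118% and 1.41 ± 0.122% in the controls against 8.98 ± 0.548% and 7.46 ± 0.623% in the naive libraries (SD, n = 8). The 7 rows of the Trbj1 cluster, upstream of the Trbj2 cluster, held 40.0 ± 3.60% of Trbj in the controls and 39.0 ± 2.62% in the naive libraries (SD, n = 8). Of the Trbj counts outside Trbj2-7, the Trbj1 cluster held 62.7 ± 3.19% in the controls, 59.5 and 60.1% in the knockout libraries and 46.9 ± 2.40% in the naive libraries. Trbc1, the constant gene behind the Trbj1 cluster, made up 23.5 ± 1.32% of the Trbc1 and Trbc2 counts in the controls, 22.6 and 21.7% in the knockout libraries and 37.5 ± 1.63% in the naive libraries.

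The few Trbv counts outside Trbv12-1 numbered 108 to 302 per control library and 204 and 394 in the knockout libraries. Over the 8 controls, Trbv11, a pseudogene and the row next to Trbv12-1 on its upstream side, summed to 247 counts, close to Trbv13-2 with 237 and Trbv12-2 with 230. Trbv11 was the highest in 3 of the 8, and without control 7 it summed to 179, below Trbv13-2 (197) and Trbv12-2 (217). Trbv11 had 6 to 68 counts per control library, 37 and 16 in the knockout libraries and 2 counts in 1 naive library, with 0 in the other 7. Trbv13-2 held 0.0380 ± 0.0141% and Trbv31 0.0257 ± 0.00888% of Trbv in the controls, against 10.2 ± 0.672% and 2.33 ± 0.290% in the naive libraries (SD, n = 8). In the knockout libraries Trbv16 held 0.0524 and 0.0330% and Trbv19 0.0567 and 0.0361%, where the controls held 0 to 0.0228% and 0 to 0.0215%. Neither difference passed edgeR's test (adjusted p = 0.282 and 0.239). Of the Trav counts outside the Trav14 family, Trav21-dv12 held 16.6%, Trav19 11.6% and Trav16 7.95% in the controls.

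**Figure D3:**
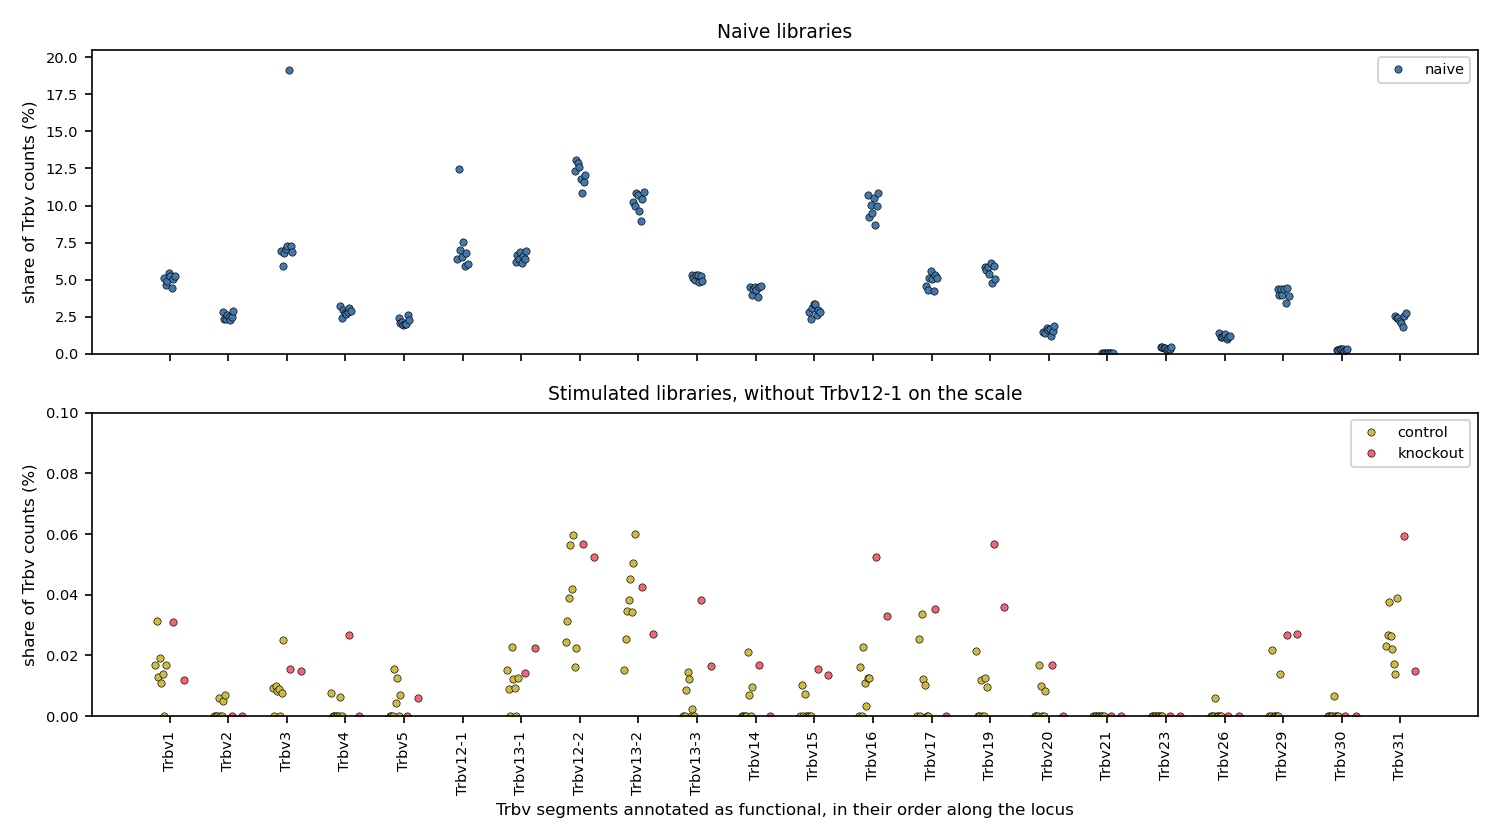
Share of Trbv counts (%) of the functional Trbv segments in the order of the locus, 1 point per library, for naive libraries (upper panel) and stimulated libraries (lower panel, an axis from 0 to 0.1% on which Trbv12-1 is not shown). Naive libraries spread over many segments, with single points for Trbv3 and Trbv12-1 far above the others, and no segment of the lower panel reaches 0.1%.

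Most segments were lower in the controls than in the naive libraries. Of 237 rows 192 had enough counts to be tested in control against naive libraries, and edgeR called 20 higher and 164 lower in the controls (22 and 165 without naive libraries 2 and 6), where 32.5% of all 17078 tested genes were called higher, 39.0% lower and 71.5% in either direction. The median log2 fold change was -4.58 over the tested segments and -0.08 over all tested genes. By class, the calls were 5 higher and 103 lower of 110 Trav rows, 8 and 33 of 45 Traj rows, 1 and 22 of 23 Trbv rows, and 6 and 6 of 14 Trbj rows. In a bulk library, fewer cells that use a segment and less RNA per cell cannot be told apart. Markers of other cells moved with the group. The summed level of the 6 markers of dendritic cells and MHC class II was 1141 to 3351 CPM in naive and 146 to 464 CPM in control libraries, with all 6 lower, and that of the 8 B cell markers was 738 to 1191 and 391 to 475 CPM, with 7 of the 7 tested lower. The 4 NK cell markers summed to 84.5 to 142 and 12.8 to 62.9 CPM, and Klra8 was at 0 in all controls. Most of these sums was Eomes, with means of 94.7 CPM in naive and 26.1 CPM in control libraries. The 3 myeloid markers summed to 23.7 to 93.8 and 14.2 to 34.1 CPM, with 2 lower. Genes of gamma delta T cells were split. The 2 of that list with a row under the listed symbol, Sox13 and Trdc, were both higher. They summed to 11.8 to 22.9 CPM in naive and 84.0 to 148 CPM in control libraries. Sox13, a transcription factor of gamma delta T cells, had a log2 change of 4.51 (edgeR, adjusted p = 3.04e-06). The listed symbols Trgc1 and Trgc2 name no row. Of the gamma constant rows, Tcrg-C1 and Tcrg-C2 were lower (log2 changes -2.36 and -3.28, edgeR, adjusted p = 4.04e-07 and 3.83e-12). Tcrg-C4 was higher (log2 change 1.36, edgeR, adjusted p = 0.000239). Of the 4 CD4 T cell markers, 2 were higher and 1 lower, with sums of 4.12 to 6.08 and 4.36 to 20.8 CPM. The part of these cells in the segment results was not tested.

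The rows that rose were the OT-I segments, their close copies and J rows. Trbv12-1 stood at 40.8 to 82.7 CPM in the naive libraries and 854 to 1055 CPM in the controls (log2 change 4.17, SE 0.13, adjusted p = 2.90e-14). Traj33 stood at 1.38 to 2.81 and 35.0 to 48.8 CPM (log2 change 4.46, SE 0.14, adjusted p = 4.44e-14). The other rises included Traj49, from 1.78 ± 0.367 to 8.47 ± 0.472 CPM, Traj58, from 0.410 ± 0.243 to 2.63 ± 0.611 CPM, and Trbj2-1, from 15.0 ± 0.577 to 32.8 ± 2.53 CPM (SD, n = 8). Of the Trav14 rows, Trav14d-1, Trav14n-1, Trav14-3, Trav14n-2 and Trav14d-2 rose and the other 4 fell. The call of Trav14d-2 was held in 4 of 16 fits that left out 1 library, with naive library 6 far above the others of its group. Its log2 fold change was 0.86 (adjusted p = 0.0420) with all libraries and 1.58 (adjusted p = 2.73e-09) without naive 6, and scaling by total counts alone ended the call (adjusted p = 0.0722).

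Among the rows that fell, Trbv16 went from 71.4 ± 5.26 to 0.0959 ± 0.0821 CPM and Trbv13-2 from 73.4 ± 3.55 to 0.361 ± 0.139 CPM (SD, n = 8). The leading Trav rows of the naive libraries, Trav12-2 with 3.80 ± 0.496%, Trav16n with 3.37 ± 0.322% and Trav16 with 2.76 ± 0.176% of Trav, all fell, as did Traj22, from 6.72 ± 0.877 to 0.0993 ± 0.0695% of Traj (SD, n = 8). Segments of the invariant receptors of 2 innate-like T cell types were also examined. Trav11 and Traj18 form the alpha chain of NKT cells and Trav1 and Traj33 that of MAIT cells. Trav1 had 150 to 205 counts per naive library, 0.536 ± 0.0792% of Trav, and 0 counts in all 10 stimulated libraries, which allows up to 0.00884% of Trav in the shallowest control and 0.0100% in the shallower knockout library. The Trav11 rows summed to 0.587 ± 0.0893% in the naive and 0 to 0.0140% in the control libraries. Zbtb16, a transcription factor of both cell types, was between 0 and 0.221 CPM in the naive libraries. The 8 tested segments that were not called included Trav21-dv12 and, named after their values were seen, Trbj1-3 and Trbj1-6.

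The libraries labelled naive did not share 1 segment profile. Libraries 2 and 6 stood apart in single segments. Naive library 6 had 19.2% of its Trbv counts in Trbv3, where the other 7 had 5.95 to 7.29%. Its Trbj1-1 share was 12.2% against 5.65 to 7.91%, its Trbj2-4 share 9.62% against 6.77 to 7.41%, and its Traj7 share 9.80% against 0.905 to 1.74%. Trav14d-2 and Trav14n-2 held 5.97 and 5.84% in it, against at most 1.38 and 1.41% in the others. So a V and a J segment of each chain stood out in the same library, and whether they belong to the same receptor cannot be read from these counts. Traj7 and Trbj2-4 were named after their values were seen. Naive library 2 had the highest shares of Trbv12-1 (12.4%), Traj33 (5.77%) and Trav14n-3 (2.75%), and its Trbj2-7 share of 18.4% was also the highest of the group, with 14.1 to 17.9% in the other 7.

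**Figure D4:**
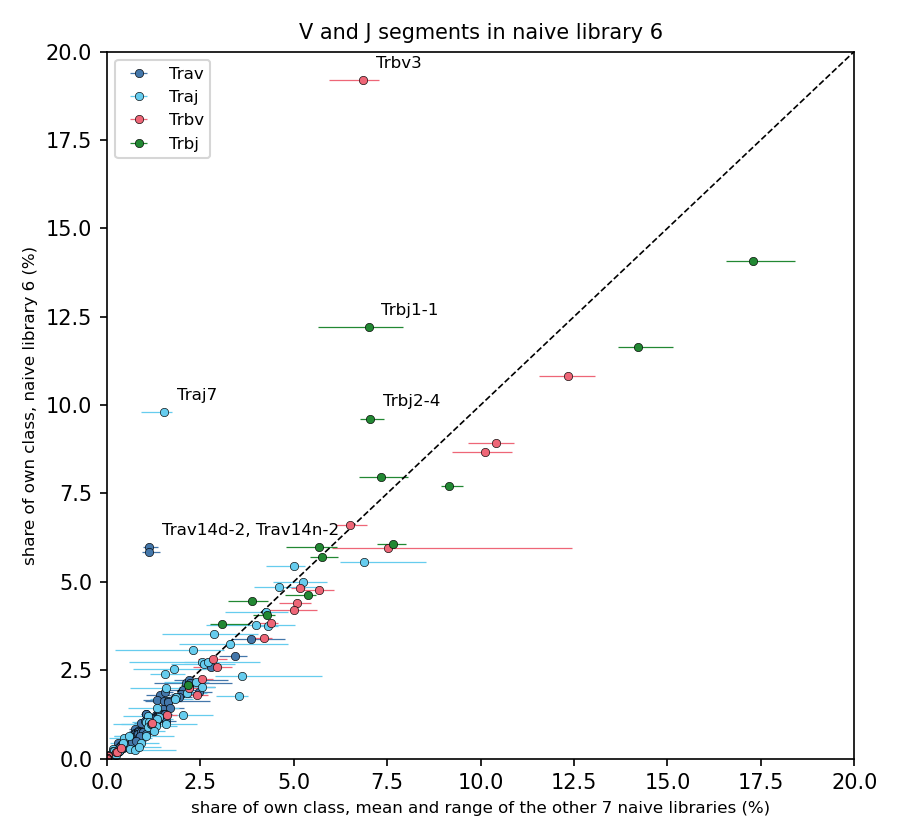
Share of the own class (%) of each V and J segment in naive library 6 (vertical axis) against the mean of the other 7 naive libraries (horizontal axis), with bars for the range of those 7 and a dashed line of equality. Trbv3, Traj7, Trbj1-1, Trbj2-4, Trav14d-2 and Trav14n-2 lie above the line, and no other segment lies 1 percentage point or more above it.

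The spread between naive libraries differed by class. Over segments with a mean share of at least 1%, the median coefficient of variation between the 8 naive libraries was 8.46% for 19 Trbv segments, 7.61% for 14 Trbj segments, 11.6% for 42 Trav segments and 24.1% for 37 Traj segments, the class with the fewest counts. The highest single values were 52.0% for Trbv, 25.6% for Trbj, 99.0% for Trav and 114.6% for Traj. Traj segments other than those that stood apart in libraries 2 and 6 also varied. Traj30, named after its values were seen, held 0.582 and 0.712% of Traj in naive 3 and 4 and 2.74 to 4.10% in the other 6 (coefficient of variation 49.8%). Position along the locus and mean naive share had a Spearman correlation of -0.49 over 22 functional Trbv segments, 0.24 over 108 Trav, 0.26 over 51 Traj and 0.34 over 13 Trbj segments. These are descriptions over segments that share libraries and differ in length.

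Knockout and control libraries held nearly the same segments, and Traj33 was the OT-I segment whose shares did not overlap. It held 67.9 and 67.5% of Traj in the knockout libraries and 58.7 to 65.6% in the 8 controls. Controls 1 and 2 were the highest of the controls, and controls 3 to 8 held at most 64.1%. The means lay 5.35 points apart (p = 0.0444 by the exact permutation test, the smallest that 45 splits allow), and with an adjusted p of 0.0741 this did not pass. For Trbv12-1, Trbv12-2, Trbj2-7 and the Trav14 family the differences were -0.188, 0.0182, 1.23 and -0.0530 points (exact permutation p between 0.0889 and 1, adjusted p between 0.127 and 1), and the groups overlapped. The difference of the Trav14 family turned to 0.0769 points without control 1 and to 0.0550 without control 2. As levels, none of Traj33, Trbj2-7 and Trbv12-1 was called. Traj33 stood at 32.5 and 29.7 CPM in the knockout libraries against 35.0 to 48.8 CPM in the controls (log2 change -0.39, SE 0.14, adjusted p = 0.0803), and DESeq2 called it lower (adjusted p = 0.0411). Trbv12-1 stood at 730 to 893 against 854 to 1055 CPM (log2 change -0.21, SE 0.09, adjusted p = 0.149). Without knockout 1, Trbv12-1 and Trbj2-7 were called lower by edgeR (adjusted p = 0.0298 and 0.0402).

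In this comparison 108 segments were tested, and edgeR called none higher (0) and 8 lower (7.41% of the segments tested) in knockout. Over all 18651 tested genes 7.62% were called higher, 7.24% lower and 14.9% in either direction, so the share of segments called lower was near that of all genes. At an unadjusted p under 0.05, 26 segments passed, and DESeq2 called 0 higher and 12 lower. With the naive libraries in the same fit, edgeR called 12 higher and 10 lower. The median log2 fold change was -0.38 over the segments and -0.01 over all genes. The 8 segments were Traj49, Traj47, Traj27, Traj58, Traj41, Trav14n-1, Trav14d-1 and Trav14d-2. All 5 Traj rows are J segments other than Traj33, which is a single row among the 34 Traj rows tested. The 3 Trav rows are copies of V alpha 2.

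Traj49 had the smallest p of the 8. It stood at 4.91 and 4.43 CPM in the knockout libraries, 7.69 to 9.15 CPM in the controls (median 8.52) and 1.05 to 2.27 CPM in the naive libraries. Both knockout libraries lay under every control and above every naive library. The log2 fold change against control was -0.84 (SE 0.12, adjusted p = 0.00144), and it was called in all 10 fits that left out 1 library. Traj47 stood at 0.458 and 0.561 CPM against 0.988 to 1.41 CPM (log2 change -1.11, SE 0.25, adjusted p = 0.0119), and Traj58 at 1.21 and 1.42 against 1.69 to 3.62 CPM (log2 change -0.98, SE 0.27, adjusted p = 0.0307). Traj27 stood at 0.814 CPM in both knockout libraries and 1.16 to 1.80 CPM in the controls (log2 change -0.88, SE 0.24, adjusted p = 0.0275). As with Traj49, none of these 3 overlapped between knockout and control libraries. Since these segments were picked by calls on the same counts, the lack of overlap is no separate evidence. All 3 lost their calls without knockout 1 or without knockout 2 (adjusted p = 0.0911 to 0.212), and Traj58 also without control 8 (adjusted p = 0.0508).

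Trav14n-1 stood at 160 and 141 CPM and Trav14d-1 at 162 and 143 CPM in the knockout libraries, against 178 to 232 CPM in the controls for both. Their log2 fold changes were -0.44 (SE 0.12, adjusted p = 0.0243) and -0.43 (SE 0.12, adjusted p = 0.0286), and since the rows are identical over the compared bases they are not separate evidence. Both lost their calls without knockout 2 (adjusted p = 0.276 and 0.298). Trav14d-2 (adjusted p = 0.0454) and Traj41 (adjusted p = 0.0486) were each called in 2 of 10 fits that left out 1 library, Trav14d-2 without control 3 or 6 and Traj41 without control 2 or 8. Scaling by RLE factors put both just past the threshold (adjusted p = 0.0511 and 0.0524). Trav14n-2, which shares all its 50-base runs with Trav14d-2, was not called (log2 change -0.48, adjusted p = 0.0602). The summed share of this pair was 6.60 and 6.79% of Trav in knockout against 6.58 to 7.38% in the controls, and the groups overlapped. With knockout 2 left out, 1 of the 8 remained, Traj49 (adjusted p = 0.0339), in a fit that takes the lone knockout library to vary like the controls.

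**Figure D5:**
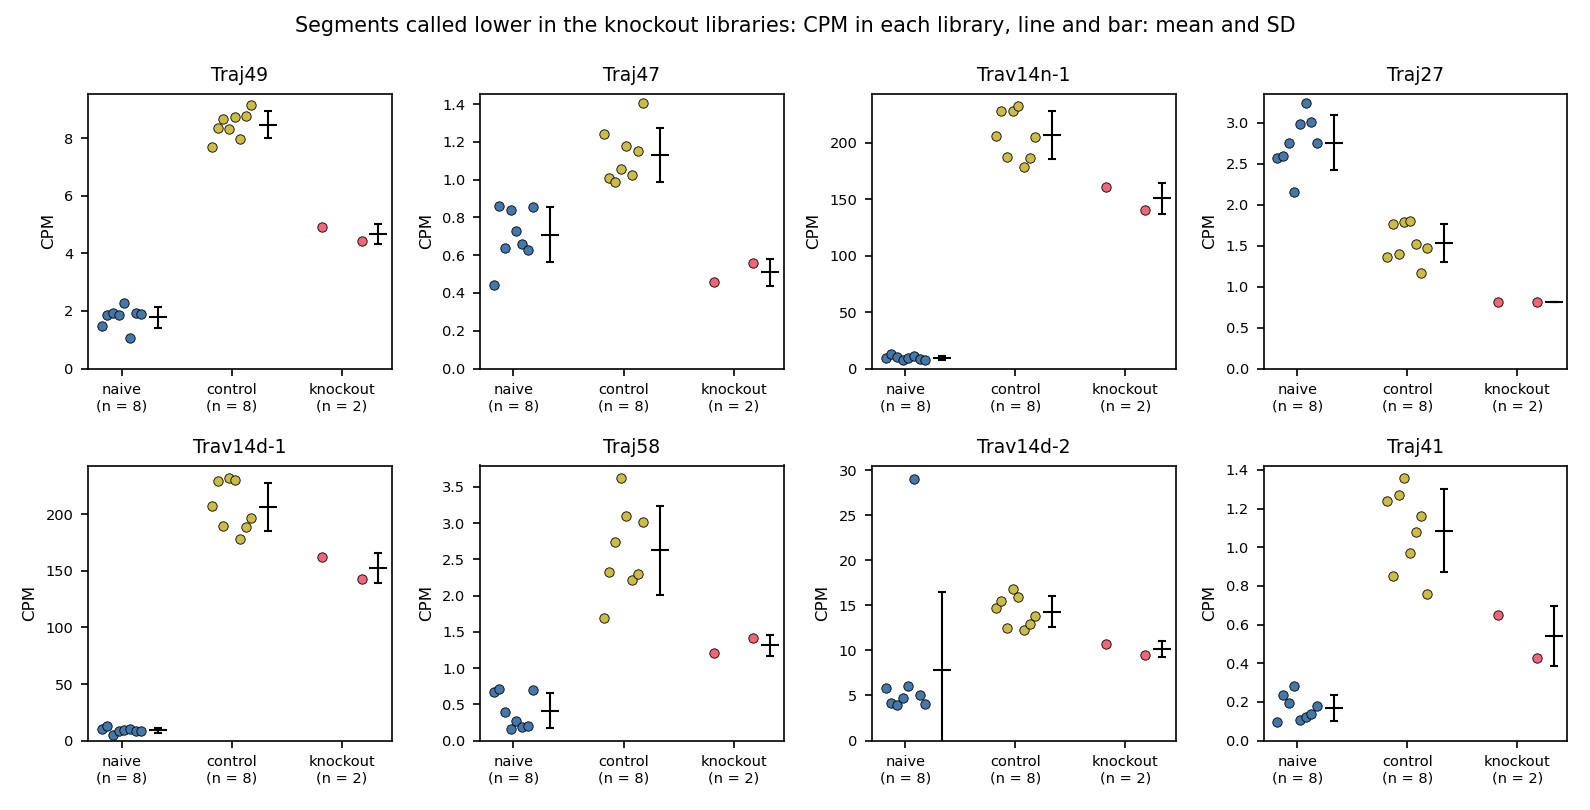
TMM-scaled CPM of the 8 segments that were lower in the knockout libraries, with 1 point per library and a line and bar for the mean and SD of naive (n = 8), control (n = 8) and knockout (n = 2) libraries; each panel has its own axis from 0, and the lower end of the naive bar of Trav14d-2 lies below it. In every panel both knockout libraries lie under all 8 controls, which is no separate evidence, since the panels were picked by calls on the same counts. For Trav14d-2 naive library 6 stands at 29.0 CPM.

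The constant genes, which every receptor transcript carries whatever its V and J, were a further measure. Trbc2 rose from 1513 ± 55.9 CPM in the naive to 2557 ± 157 CPM in the control libraries (log2 change 0.76, adjusted p = 4.11e-11). Trbc1, Trbd1 and Trbd2 fell and Trac stood at 1097 ± 69.8 and 1173 ± 99.3 CPM (adjusted p = 0.0973, SD, n = 8). So of 5 constant and D genes 1 rose and 3 fell in the controls, where 32.5% of all tested genes were called higher and 39.0% lower. Per kilobase of exon, the control levels were 3695 CPM for Trbc2, 2428 for Trbv12-1, 1330 for Trbj2-7, 1255 for Trac, 722 for Traj33 and 137 for Traj49. In the knockout libraries Trac, at 807 ± 55.3 CPM (SD, n = 2), and Trbc1, at 609 ± 99.9 CPM, were lower than in the controls (log2 fold changes -0.53 and -0.36, adjusted p = 0.00410 and 0.0467), and Trbc2 was not called (-0.25, adjusted p = 0.0756). The called falls of Trav14n-1, Trav14d-1 and Trac had log2 fold changes between -0.43 and -0.53. That of Trbc1 was smaller (-0.36), and those of the called Traj rows were larger, the least of them -0.84 for Traj49.

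Of the 7 genes of the receptor complex and its coreceptors, 6 were lower in the controls than in the naive libraries and none higher. Over all tested genes 32.5% were called higher and 39.0% lower in that comparison, and 7.62% and 7.24% in knockout against control. Cd3e stood at 817 ± 78.0 CPM in naive and 580 ± 42.0 CPM in control libraries, and Cd8a at 1010 ± 80.8 and 453 ± 39.9 CPM (SD, n = 8). In the knockout libraries Cd247, the zeta signalling chain, was higher than in the controls (265 ± 28.7 CPM, SD, n = 2, against 203 ± 15.0 CPM, adjusted p = 0.0125), and the other 6 were not called. The 26 gamma and delta receptor rows had 7 higher and 7 lower of 17 tested in control against naive libraries. Trdc, the delta constant gene, whose locus lies between the Trav and Traj segments, went from a mean of 16.3 to 111 CPM (log2 change 2.77, adjusted p = 1.93e-11), and Trdv4 from 0.179 ± 0.0957 to 1.99 ± 0.819 CPM (SD, n = 8). The gamma constant gene Tcrg-C2 fell from 23.8 ± 2.78 to 2.42 ± 0.665 CPM. In the knockout libraries 2 of 17 tested rows were lower than in the controls, Trdv4 at 0.476 ± 0.191 CPM and Trdv1 at 1.21 ± 0.0760 CPM (SD, n = 2), and Trdc was not called, at 106 ± 6.26 CPM.

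Genes that carry out recombination were largely those of general DNA end joining. Of 12 genes 10 were tested in control against naive libraries, 3 higher and 5 lower. Over all tested genes 32.5% were called higher and 39.0% lower in that comparison, and 7.62% and 7.24% in knockout against control. The end-binding proteins Xrcc5 and Xrcc6 rose, from 66.9 to 109 CPM and from 107 to 164 CPM, and were lower in the knockout libraries than in the controls (82.4 and 121 CPM, adjusted p = 0.0119 and 0.0133). Dntt, which adds bases at junctions, stood at 3.63 ± 1.20 CPM in the naive libraries (SD, n = 8) and at 0 in all 10 stimulated libraries. Rag1 was at 0 in the naive libraries and averaged 0.134 CPM in the controls, and Rag2 was the 1 gene of the list called higher in the knockout libraries, at 0.682 ± 0.280 CPM (SD, n = 2) against 0.143 ± 0.0975 CPM (adjusted p = 0.0403). Of 10 factors that act at the receptor enhancers, 3 rose and 6 fell in the controls, with Tcf7 at 511 ± 63.9 and 171 ± 31.1 CPM and Gata3 at 50.6 ± 3.14 and 90.3 ± 17.8 CPM (SD, n = 8). In the knockout libraries Tcf7 (266 ± 22.3 CPM, SD, n = 2), Tcf12 and Runx1 were higher than in the controls (adjusted p = 0.0141, 0.0129 and 0.0496) and none was lower.

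Between knockout and control libraries, markers of other cells differed as follows, where 7.62% of all tested genes were called higher and 7.24% lower. The B cell list summed to 671 and 825 CPM in the knockout libraries, above all controls, and 1 of its 7 tested genes was called, Ighm (714 ± 111 CPM, SD, n = 2, against 406 ± 26.9 CPM, SD, n = 8, adjusted p = 0.000184). Its members Cd79a and Ms4a1 each averaged under 1 CPM in both groups. The dendritic cell and MHC class II list summed to 134 and 125 CPM, under all controls, with none of its 6 genes called. Its members were split. Means of Cd74, H2-Ab1, H2-Aa and H2-Eb1 were lower in knockout than in control libraries. Means of Itgax (41.0 against 23.4 CPM) and Flt3 (0.269 against 0.181 CPM) were higher. The NK cell list summed to 58.65 and 59.95 CPM, within the control range of 12.8 to 62.9 CPM. Most of that sum was Eomes, at 57.6 and 59.4 CPM in the knockout libraries. Eomes stood at 62.4 and 54.1 CPM in controls 1 and 2 and at no more than 20.4 CPM in controls 3 to 8. It was not called (log2 change 1.17, edgeR, adjusted p = 0.237). The gamma delta T cell list, here Sox13 and Trdc, also summed to values within the control range (106 to 117 CPM). The 3 myeloid markers summed to 36.0 to 57.4 CPM, above all controls, with none called. Lyz2 among them stood at 46.8 and 22.3 CPM against 3.75 to 22.4 CPM (log2 change 1.67, adjusted p = 0.0717). Of the CD4 T cell list 1 gene was lower, Zbtb7b, a factor of CD4 lineage choice, at 1.74 ± 0.304 CPM (SD, n = 2) against 7.79 ± 2.88 CPM (SD, n = 8, adjusted p = 0.00719). Their part in the segment results was not tested.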

How the data were processed

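Per the labels, RNA went through a Qiagen micro kit and a SMARTer ultra-low-input kit that primes on polyA tails. The authors deposited estimated counts (expected counts) per gene as whole numbers, used as they are. Per the submitters' processing notes, the tools were StringTie 2.1.0, STAR 2.7.1a, DESeq2 1.30.1, SAMtools 1.9 and R 4.0.5, and the notes list mm10 and mm39 without saying what each was for. The gene identifiers match GENCODE M21, so coordinates and sequences are from GRCm38. Rows with numeric identifiers (26248 of 81881, 0.0513 to 0.132% of counts) name no gene and were left out, and 97 spike-in rows hold no counts. The 18 columns matched the labels, with 0 left over.

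Groups were compared over all genes with edgeR 4.0.16 in R 4.3.3 (filterByExpr with a minimum count of 10, TMM, robust quasi-likelihood test, prior count 2, Benjamini-Hochberg, called under 0.05), separately for control against naive and knockout against control. Levels are TMM-scaled CPM. For single shares the test was an exact permutation of the group labels over all splits, two-sided, with p as the smaller tail counted for both sides. On simulated data, changes of 1.5, 2 and 4-fold were recovered for 73.1, 97 and 100% of genes in control against naive (9 false calls among 17078 genes) and for 17.9, 68.7 and 92.4% in knockout against control (6 false calls among 18651 genes). The simulation gave all genes the same spread beyond counting error and changed few of them. These rates need not hold for the segments. No 2 libraries were alike within sampling noise.

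Named were the OT-I segments and the Trav14 family, the 5 leading segments of each class in the naive libraries, the 3 leading others in control and in knockout libraries, the segments called in knockout against control, the NKT and MAIT segments and the constant and D genes. The members and lists were chosen with earlier results of these data known. Alternatives were a block on the replicate number, 1 fit over all groups, a minimum absolute log2 fold change of 1, scaling by RLE or by total counts, no filter on low counts, DESeq2 1.42.0, shares by family, by exon length, of functional segments or without segments under 10 counts, and leaving out each library. Added after seeing the data were the fits without naive 2 and 6, with controls 3 to 8 only, and without the block on its libraries.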

Additional observations from a re-analysis of the deposited data

Results flagged for a closer look

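In groups of 8 libraries, a library was singled out where its gap to the nearest other, divided by the range of the group, exceeded Dixon's critical value of 0.526. Of 137 combinations of segment and group with a mean share of at least 1% (112 naive and 25 control), 20 were singled out, where chance gives about 1 in 20. Naive library 6 accounts for 11 of them. It was highest for Trbv3 (19.2% of Trbv), Traj7 (9.80% of Traj), Trbj1-1 (12.2% of Trbj), Trbj2-4 (9.62% of Trbj), Trav14d-2 (5.97% of Trav) and Trav14n-2 (5.84% of Trav), and lowest for Trbj2-7 (14.1%), Trbj2-1 (11.7%), Trbj2-5 (7.70%), Trbj2-3 (6.06%) and Traj49 (1.77%). Shares of 1 class sum to 100%, so a high segment lowers the others of its class. Its effective numbers of 74.0 Trav and 15.1 Trbv segments were also the lowest of the group by that measure.

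Naive library 2 was highest for Trbv12-1 (12.4% of Trbv), Traj33 (5.77% of Traj) and Trav14n-3 (2.75% of Trav), and lowest for Traj31 (0.215% of Traj, 8 counts). The other 5 were Traj40 (2.69%) and Trav7-4 (2.89%) in naive 1, Trbj2-6 (2.63%) in naive 3, Trav14d-3-dv8 (1.54%) in naive 8 and Trbj1-6 (4.60%) in control 3.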

How the results depend on the processing

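The control against naive counts of calls stayed within 1.5 times of those reported under all alternatives run, with 19 to 22 higher and 164 to 168 lower when 1 library was left out and 20 higher and 165 lower with the replicate number as a block. The knockout calls were less stable: 0 higher in each fit and 1 to 9 lower with 1 library left out, 12 higher with all groups in one fit, 1 lower where the absolute log2 fold change had to reach 1, and 0 lower with the replicate block, which keeps 72 tested segments, and also 0 on the same libraries without the block. Libraries with the same number had residual correlations of -0.0258 to 0.032 (control and naive, 1 of 8 highest with its own number) and 0.00998 and 0.0499 (knockout and control), so the numbers were not used as pairs; no block was run for the knockout shares, which have 2 pairs. The Trav14 family difference of knockout and control ranged from -0.138 to 0.0769 points when 1 library was left out (0.0550 without control 2) and was 0.225 with controls 3 to 8. The effective number of Trav by family was 12.9 naive, 1.18 control and 1.19 knockout, and of Trbv 11.5 naive. With segments under 10 counts set to 0 it was 3.49 for knockout Trav and 36.2, 4.70 and 3.66 for naive, control and knockout Traj, and by exon length 4.42 for knockout Traj. The cause of these changes was not tested, beyond that summing families leaves fewer segments. With all groups in one fit, Trav14n-1, Trav14d-1, Trav14d-2, Traj58 and Traj41 lost their knockout calls (adjusted p = 0.0525 to 0.635). Of the alternative values of named segments that were called, 1013 of 1032 kept the call for control against naive (43 segments) and 92 of 152 for knockout against control (8 segments). Of those not called, 4 of 24 and 14 of 592 passed under an alternative. Class depth limits Traj most, with 3680 counts in the shallowest library.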
